A study of Mus musculus with 8 samples.

Results

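The Schlafen genes Slfn1, Slfn2, Slfn3 and Slfn4 and the Kruppel-like factors Klf2, Klf3, Klf4, Klf6 and Klf13 were followed in mouse pre-BII cells that lacked Aiolos, OBF-1 or both. The 9 genes had 17 probe sets of the 22626 tested on the MOE430A GeneChip, 16 of them for 1 gene and 1 shared by Slfn3 and Slfn4. The whole array held 12393 gene symbols. Slfn2 was selected on these same intensities, because its level in the double mutant departed from the sum of the single-mutant changes, so that departure and its comparisons between genotypes are given as a description with no test. The other members were taken as relatives of Slfn2 or as factors tied to lymphocyte quiescence.

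Quiescence is the resting, non-dividing state that small lymphocytes hold until a signal drives them into the cell cycle. Pre-BII cells pass from a dividing large stage into a resting small stage, in which the immunoglobulin light chain genes are rearranged. The mouse Schlafen genes, named after the German word for sleeping, form a cluster on 1 chromosome, and several of them slow the growth of T lineage cells when overexpressed. A mouse mutation in Slfn2 leaves T cells unable to stay at rest. Kruppel-like factors are zinc finger proteins that bind CACCC and related GC-rich sequences, and Klf2 and Klf4 hold back the division of lymphocytes. OBF-1 is the product of Pou2af1 and assists the Oct factors as a coactivator in B cells. Aiolos is the product of Ikzf3 and belongs with Ikaros to a family of DNA-binding zinc finger proteins.

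The 4 genotypes, each with 2 arrays, were the Aiolos/OBF-1 double mutant, the mutants of Aiolos alone and of OBF-1 alone, called the Aiolos mutant and the OBF-1 mutant below, and wild type. The labels give all of them the strain Bl6 and an age of 7 weeks. The mutations are deletions present in all cells of the mouse. According to the study's methods, B220+ CD25+ pre-BII cells were sorted from the marrow of independent pools of mice, whereas the labels name bone marrow, give a single mouse for each mutant sample and mention no sort, so what an array stands for rests on the methods. The p-values measure the spread between the 2 arrays of a genotype only.

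Expression is given as array intensity in linear units, with medians of 66.8 to 69.4. Pou2af1 had an intensity of 170 and 273 in double mutants, 2434 and 2842 in Aiolos mutants, 241 and 236 in OBF-1 mutants and 2761 and 2678 in wild type, low on each array labelled as lacking OBF-1. Ikzf3 was not analysed here. Il2ra, which encodes the sorting marker CD25, had 703 and 626 in double mutants, 472 and 485 in Aiolos mutants, 676 and 598 in OBF-1 mutants and 445 and 396 in wild type, and Cd79a, of the B cell receptor complex, lay between 7079 and 9365. The summed intensity of 8 pre-B markers was 17309 to 17451 in the double mutant, 22848 to 23651 in the Aiolos mutant, 19405 to 20008 in the OBF-1 mutant and 24667 to 25285 in wild type. The markers of this list did not move together. In the double mutant against wild type 2 were higher (Il2ra and Rag2), 3 lower (Vpreb3, Cd79b and Ebf1) and 3 did not pass, with a median log2 change of -0.14. Of all probe sets 8.57% passed in that comparison, 4.29% higher and 4.28% lower, with a median of 0.01. Of these markers Vpreb3 had the largest fall (-1.72), with 1759 and 1836 in the double mutant, against 5997 and 5822 in wild type. It was lower still in the OBF-1 mutant (1108 and 1197), and had 6035 and 5798 in the Aiolos mutant. Cd79b had 3679 and 3426 in the double mutant and 6215 and 6211 in wild type. Rag2 was lost without wild type array 1 (adjusted p = 0.0957 from limma), wild type array 2 (0.0610) or double-mutant array 2 (0.0829), and Ebf1 without wild type array 1 (0.136) or double-mutant array 1 (0.126). Some granulocyte and monocyte markers were strong on all arrays, with S100a8 between 4574 and 6211. Others were dimmer, with Csf1r between 205 and 305 and Itgam between 31.2 and 43.2, below the array medians. The sum over all 11 was 29123 to 29762 in the double mutant, 26810 to 27612 in the Aiolos mutant, 29003 to 32885 in the OBF-1 mutant and 23593 to 23822 in wild type. The sums of 7 T cell markers (302 to 355) and 3 NK cell markers (186 to 228) stayed low on all arrays. Fluidics station 1 handled the arrays of both genotypes without Aiolos, and station 2 those of both genotypes with it. Station and loss of Aiolos therefore cannot be told apart. On each station the arrays without OBF-1 ran on modules 3 and 4 and those with it on modules 1 and 2, so module and loss of OBF-1 cannot be told apart either.

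The promoters of Slfn2, of its chromosomal neighbours Slfn1 and Slfn4, which rose in the double mutant, where Slfn2 was lowest, and of Klf3, whose pattern over the arrays was nearest to that of Slfn2 among the members compared, are shown 5′ to 3′ from RefSeq (build GRCm38.p6, plus strand, 250 bases before to 50 bases after the gene's start). Capitals mark matches to TGGGAA, a core sequence bound by the Ikaros family, or to CACCC, each searched on both strands. The intervals are chr11:83064862-83065161 for Slfn2, chr11:83116570-83116869 for Slfn1, chr11:83174936-83175235 for Slfn4 and chr5:64803271-64803570 for Klf3.
Slfn2: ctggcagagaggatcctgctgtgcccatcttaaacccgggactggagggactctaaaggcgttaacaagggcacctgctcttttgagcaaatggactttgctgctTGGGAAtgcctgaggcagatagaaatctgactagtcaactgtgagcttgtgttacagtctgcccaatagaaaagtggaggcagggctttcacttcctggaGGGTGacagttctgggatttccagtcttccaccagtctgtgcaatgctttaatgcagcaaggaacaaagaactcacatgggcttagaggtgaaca
Slfn1: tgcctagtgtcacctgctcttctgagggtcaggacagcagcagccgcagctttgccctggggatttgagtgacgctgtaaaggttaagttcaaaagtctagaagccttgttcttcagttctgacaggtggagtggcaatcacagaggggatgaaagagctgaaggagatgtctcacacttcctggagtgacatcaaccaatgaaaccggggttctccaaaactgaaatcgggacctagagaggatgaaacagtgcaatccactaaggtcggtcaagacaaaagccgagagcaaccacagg
Slfn4: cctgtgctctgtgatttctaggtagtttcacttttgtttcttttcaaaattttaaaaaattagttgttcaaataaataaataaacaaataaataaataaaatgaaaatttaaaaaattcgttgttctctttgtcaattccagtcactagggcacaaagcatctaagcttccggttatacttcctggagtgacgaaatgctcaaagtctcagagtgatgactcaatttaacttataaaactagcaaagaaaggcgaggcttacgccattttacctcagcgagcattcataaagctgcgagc
Klf3: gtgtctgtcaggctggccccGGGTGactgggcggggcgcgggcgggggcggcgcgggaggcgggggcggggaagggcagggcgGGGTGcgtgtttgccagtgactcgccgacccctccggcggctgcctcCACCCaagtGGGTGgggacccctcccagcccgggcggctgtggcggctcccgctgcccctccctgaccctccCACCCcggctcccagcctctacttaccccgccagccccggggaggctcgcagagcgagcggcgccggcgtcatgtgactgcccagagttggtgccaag

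All 9 members had a promoter entry. TGGGAA was found in the Slfn2 promoter alone of the 9, starting at position -145 from the gene's start, and in 25.6% of the 32851 promoters of this length. CACCC was found in 5 of the 9 (Slfn2, Slfn3, Klf2, Klf3 and Klf13) and in 57.5% of all promoters, and the Klf3 promoter held 5 matches. The octamer ATTTGCAT, the Oct factor sequence, was in 0 of the 9 promoters and in 1.74% of all. These matches describe letters in the sequence and not bound sites.

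Slfn2, which mouse T cells need in order to remain at rest, was lowest in cells lacking both factors. Its single probe set (1450165_at) had an intensity of 263 and 272 in double-mutant pre-BII cells, 466 and 539 in Aiolos-mutant cells, 807 and 905 in OBF-1-mutant cells and 859 and 823 in wild type cells. The double-mutant arrays lay below both Aiolos-mutant arrays, which lay below all OBF-1-mutant and wild type arrays, and the OBF-1-mutant and wild type arrays overlapped. Because the samples are bulk RNA, fewer cells that express a gene and less RNA per cell cannot be told apart, here or for any member below.

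The double-mutant level of Slfn2 was 0.318 times that of wild type, a log2 difference of -1.65 (95% interval -1.88 to -1.43). The Aiolos mutant differed from wild type by -0.75 (interval -0.97 to -0.52) and the OBF-1 mutant by 0.02 (interval -0.20 to 0.25) on the same scale. Loss of OBF-1 thus went with a log2 difference of -0.90 in cells already without Aiolos (double mutant against Aiolos mutant, interval -1.13 to -0.68). Had the single-mutant log2 changes added up, the double mutant would have been at an intensity of 509, whereas the observed level of 268 was 52.6% of that. This departure of -0.93 on the log2 scale (standard error 0.15) is the value for which Slfn2 was chosen. On linear intensities the same departure was -249 units (standard error 63.8) from an additive level of 517.

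The average effect of a loss is the mean of its log2 changes with and without the other factor. Slfn2 was not chosen by it, and in this balanced design its estimate is uncorrelated with the departure from additivity. Both come from the same arrays and share the same estimate of the spread, so the p-values below are not independent of the choice. They are given as a description and not as support for the choice of Slfn2. Over both OBF-1 states, loss of Aiolos lowered Slfn2 by a log2 average of -1.21 (standard error 0.073, adjusted p = 3.5e-06 from limma), on arrays of different stations. Loss of OBF-1 lowered it by a log2 average of -0.44 (standard error 0.073, adjusted p = 0.0035 from limma), on arrays of different modules. That OBF-1 average joins a difference of 0.02 in cells with Aiolos and of -0.90 in cells without it. With 1 array left out at a time the log2 average ranged from -1.26 to -1.16 for Aiolos loss and from -0.49 to -0.39 for OBF-1 loss. Those fits are not balanced, so the lack of correlation with the departure does not hold in them. Without moderation of the variances the average OBF-1 effect did not pass (adjusted p = 0.118).

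**Figure D1:**
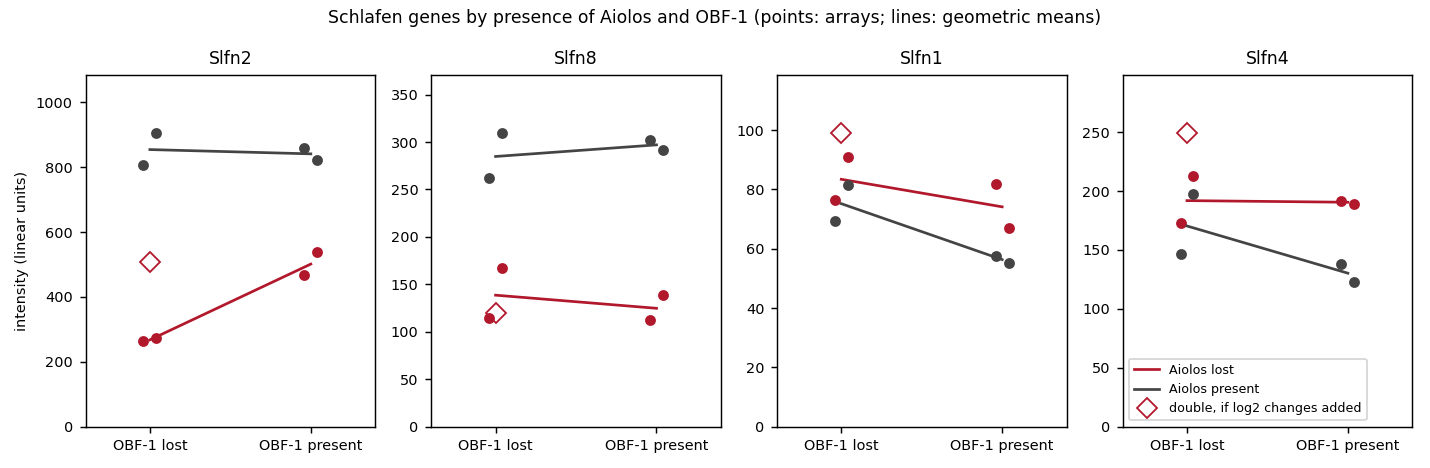
Intensity (linear units) of Slfn2, Slfn8, Slfn1 and Slfn4 on each array by presence of OBF-1 (x axis), in cells without Aiolos (red) and with it (grey); points are arrays, lines join geometric means of 2 arrays and the diamond is the double-mutant level if log2 changes added. The observed Slfn2 level of 268 lies below its diamond at 509, while Slfn8 at 139 lies near its diamond at 120. Slfn1 (83.4 against 98.9) and Slfn4 (192 against 249) also lie below theirs, by departures that did not pass (adjusted p = 0.60 and 0.47 from limma).

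Slfn8, a longer Schlafen gene next to this group on the chromosome and the other Schlafen gene with a probe set of its own here, was lower without Aiolos as well. Its intensity was 115 and 167 in double mutants, 113 and 138 in Aiolos mutants, 262 and 309 in OBF-1 mutants and 303 and 291 in wild type. The arrays with and without Aiolos did not overlap. The log2 change was -1.10 in the double mutant (standard error 0.16, adjusted p = 0.0012 from limma) and -1.25 in the Aiolos mutant (standard error 0.16, adjusted p = 0.0042), the second lost without wild type array 1 (adjusted p = 0.0548). The OBF-1 mutant gave -0.06 (adjusted p = 0.92 from limma). Its log2 departure from additivity was 0.21 (adjusted p = 0.74 from limma).

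Slfn1, which blocks the growth of mouse thymocytes when overexpressed, was higher in the double mutant, the opposite direction to its neighbour Slfn2. Its intensity (1418612_at) was 76.5 and 91.0 in double mutants, 82.0 and 67.1 in Aiolos mutants, 69.5 and 81.4 in OBF-1 mutants and 57.4 and 55.3 in wild type. All 6 mutant arrays lay above both wild type arrays, and the mutant genotypes overlapped one another. The double mutant was 1.48 times wild type, a log2 change of 0.57 (standard error 0.13, adjusted p = 0.016 by limma). That rise was lost without wild type array 1 (adjusted p = 0.070), wild type array 2 (0.102) or double-mutant array 2 (0.112). The single mutants gave 0.40 (adjusted p = 0.13, Aiolos) and 0.42 (adjusted p = 0.15, OBF-1) on the log2 scale, neither of which passed.

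Slfn4, a Schlafen gene of mouse myeloid cells, also rose in the double mutant. It had an intensity (1427102_at) of 173 and 213 in double mutants, 192 and 189 in Aiolos mutants, 147 and 198 in OBF-1 mutants and 138 and 123 in wild type. Again all mutant arrays were above the wild type arrays and overlapped one another. The log2 change was 0.56 in the double mutant (standard error 0.14, adjusted p = 0.030 from limma), 0.55 in the Aiolos mutant (adjusted p = 0.076) and 0.39 in the OBF-1 mutant (adjusted p = 0.25). The double-mutant rise was lost without wild type array 1 (adjusted p = 0.074), wild type array 2 (0.188) or double-mutant array 2 (0.182). Of the 11 granulocyte and monocyte markers, 7 rose in the double mutant (median log2 change 0.45, against 0.01 over all probe sets), 0 passed in the Aiolos mutant (5 at an unadjusted p from limma under 0.05) and 4 rose in the OBF-1 mutant. Of all probe sets 4.29% were higher in the double mutant and 2.09% passed in the OBF-1 mutant. Leaving out 1 array gave 2 to 7 markers higher in the double mutant, with 2 without double-mutant array 1 or wild type array 2 and 3 without double-mutant array 2 or wild type array 1, and 0 to 4 in the OBF-1 mutant, with 0 without wild type array 1 or OBF-1 array 2 and 1 without wild type array 2. Their part in the Slfn4 and Slfn1 results was not tested.

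Slfn3, expressed in some mouse T cells, was measured at 7.94 to 9.24 intensity units on all 8 arrays, below the 5th percentile of every array (10.2 to 10.8). The probe set shared by Slfn3 and Slfn4 (1450322_s_at) lay between 10.6 and 12.6. Neither passed in any comparison, and at such levels a difference between genotypes was not detectable.

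**Figure D2:**
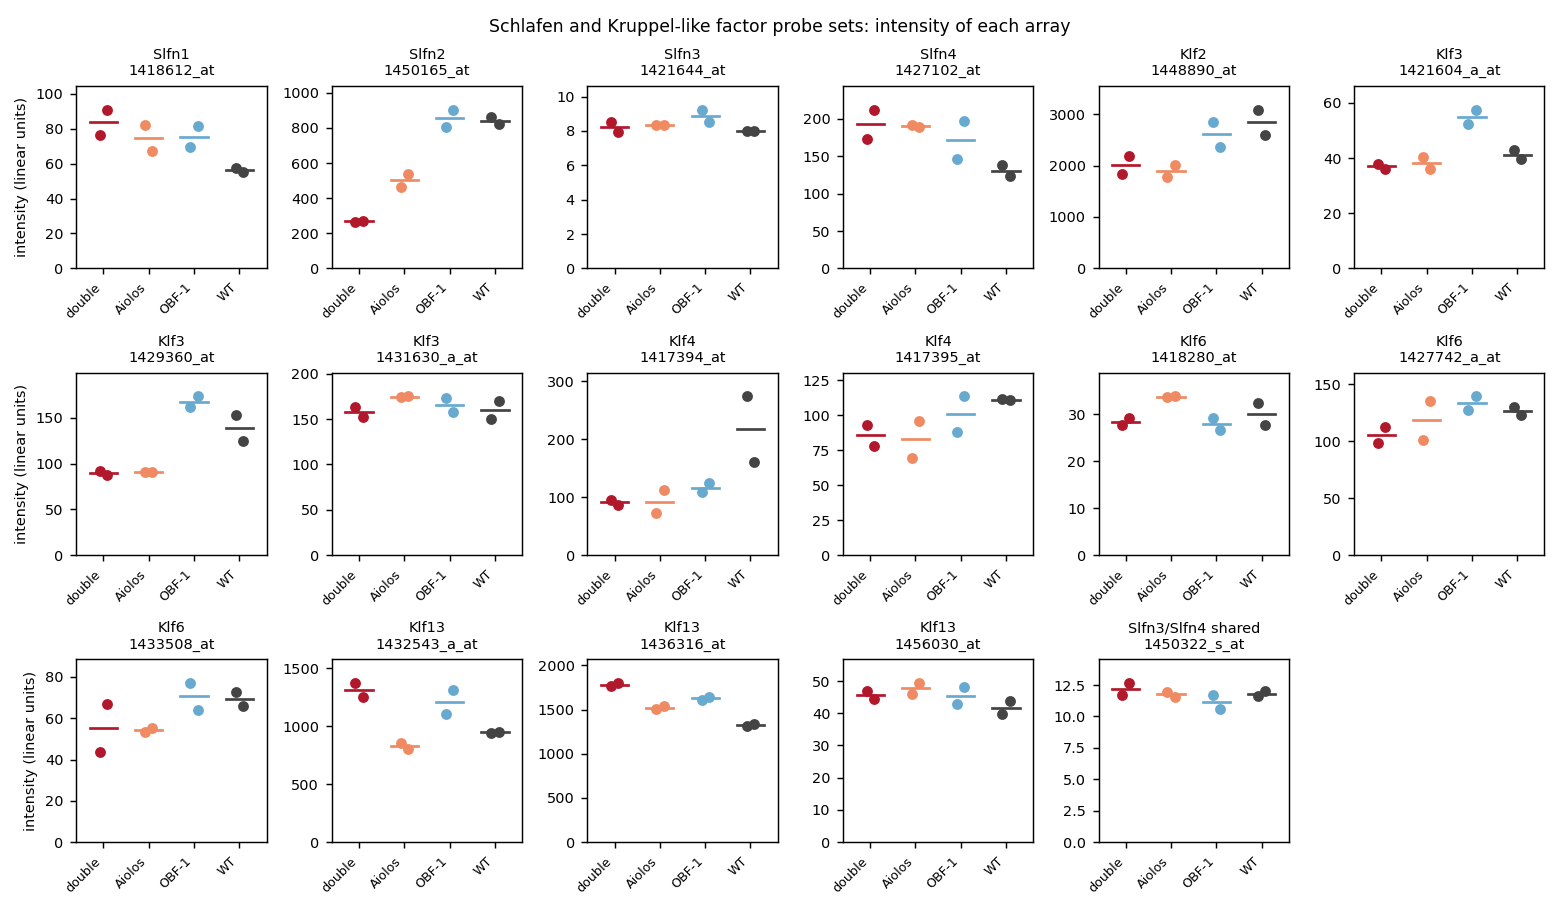
Intensity (linear units, each axis starting at 0) of the 17 probe sets on each of the 8 arrays, with double mutant, Aiolos mutant, OBF-1 mutant and wild type side by side; points are arrays and bars the mean of 2. Slfn2 steps down to 263 and 272 in the double mutant, the Klf3 probe set 1429360_at separates arrays without Aiolos (87.2 to 91.7) from those with it (125 to 173), and Slfn3 stays below 10.2 on all arrays.

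Among the Kruppel-like factors, Klf2 and some but not all probe sets of Klf3 and Klf4 were lower by the average Aiolos effect. Some but not all probe sets of Klf13 were higher by the average OBF-1 effect. Klf4 1417394_at was lower in the OBF-1 mutant too (log2 change -0.85, adjusted p = 0.096 from limma), and its arrays with and without Aiolos overlapped. Klf2, which keeps mouse T cells at rest and directs their traffic, was lower in both genotypes without Aiolos. Its intensity (1448890_at) was 1839 and 2195 in double mutants, 1768 and 2010 in Aiolos mutants, 2845 and 2366 in OBF-1 mutants and 3088 and 2586 in wild type. The arrays without Aiolos all lay below those with it, and OBF-1-mutant and wild type arrays overlapped.

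The log2 change of Klf2 was -0.49 in the double mutant (standard error 0.13, adjusted p = 0.039 from limma), -0.58 in the Aiolos mutant (standard error 0.13, adjusted p = 0.048) and -0.12 in the OBF-1 mutant (adjusted p = 0.75). The double-mutant fall was lost without wild type array 1 (adjusted p = 0.240), wild type array 2 (0.052) or double-mutant array 1 (0.254), and the Aiolos-mutant fall passed in 2 of 8 fits that each left out 1 array (adjusted p 0.046 to 0.302). With quantile normalization neither passed (adjusted p = 0.0570 and 0.0577 from limma). Averaged over both OBF-1 states, loss of Aiolos lowered Klf2 by a log2 value of -0.48 (adjusted p = 0.012), which was lost without wild type array 1 (0.0550), Aiolos array 1 (0.0559) or double-mutant array 1 (0.0550). The average OBF-1 effect was -0.02 (95% interval -0.22 to 0.19).

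Klf3, a repressor that in mice limits marginal zone B cells, gave 3 probe sets that did not behave alike. For 1429360_at the intensity was 91.7 and 87.2 in double mutants, 91.0 and 91.1 in Aiolos mutants, 161 and 173 in OBF-1 mutants and 153 and 125 in wild type. The arrays without Aiolos were all below 100 and those with it all above. The log2 change was -0.63 in the double mutant (standard error 0.11, adjusted p = 0.0032 from limma) and -0.60 in the Aiolos mutant (standard error 0.11, adjusted p = 0.019), and -0.90 in the double mutant against the OBF-1 mutant (adjusted p = 0.00070). The first and the third passed with each array left out in turn. The Aiolos-mutant fall was lost without wild type array 1 (adjusted p = 0.165), Aiolos array 1 (0.131) or Aiolos array 2 (0.0815).

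The second Klf3 probe set (1421604_a_at) was dimmer. It had 37.9 and 36.0 in double mutants, 40.4 and 36.0 in Aiolos mutants, 52.4 and 57.6 in OBF-1 mutants and 42.8 and 39.6 in wild type. Here the OBF-1 mutant stood above all other arrays. The double mutant was lower than the OBF-1 mutant by a log2 change of -0.57 (standard error 0.10, adjusted p = 0.010 by limma), which was lost without OBF-1 array 2 (adjusted p = 0.108) or double-mutant array 2 (0.0634), and the OBF-1 mutant differed from wild type by 0.42 (adjusted p = 0.060). The third (1431630_a_at) ranged from 153 to 175 over all 8 arrays and passed in no comparison. Averaged over OBF-1 states, loss of Aiolos gave log2 changes of -0.75 for 1429360_at (adjusted p = 0.00016), -0.34 for 1421604_a_at (adjusted p = 0.016, but 0.0655 without wild type array 1, 0.0645 without OBF-1 array 2 and 0.0636 without Aiolos array 2) and 0.03 for 1431630_a_at (adjusted p = 0.86). Which Klf3 transcripts each probe set reads was not tested.

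Klf4, which restrains division in mouse lymphocytes and is a member of the factor set that reprograms cells to pluripotency, was lower in the mutants by 1 of its 2 probe sets. For 1417394_at the intensity was 95.9 and 86.6 in double mutants, 72.6 and 112 in Aiolos mutants, 109 and 124 in OBF-1 mutants and 274 and 160 in wild type. All mutant arrays lay below both wild type arrays, which differed from each other more than any other pair of replicates of this probe set on the linear scale. The log2 change was -1.20 in the double mutant (standard error 0.23, adjusted p = 0.0063 from limma), -1.22 in the Aiolos mutant (standard error 0.23, adjusted p = 0.024) and -0.85 in the OBF-1 mutant (adjusted p = 0.096). Without wild type array 1, the array with the highest value, neither fall passed (adjusted p = 0.0573 and 0.176), and the Aiolos-mutant fall was also lost without Aiolos array 1 (0.179).

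The other Klf4 probe set (1417395_at) had 92.8 and 78.3 in double mutants, 69.6 and 96.0 in Aiolos mutants, 88.0 and 113 in OBF-1 mutants and 112 and 111 in wild type. Its log2 changes of -0.38, -0.44 and -0.15 did not pass (adjusted p = 0.18, 0.16 and 0.73 from limma). The average Aiolos effect was -0.79 for 1417394_at (adjusted p = 0.015, but 0.0599 without OBF-1 array 2 and 0.0568 without Aiolos array 1) and -0.34 for 1417395_at (adjusted p = 0.11).

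Klf6, induced early after stimulation in many cells, had 3 probe sets, and none passed in any of the 8 comparisons. Their intensities ranged over all arrays from 26.7 to 33.8 (1418280_at), 98.7 to 139 (1427742_a_at) and 43.7 to 76.9 (1433508_at). In the double mutant against wild type their log2 changes were -0.08, -0.27 and -0.36, with 95% intervals of -0.30 to 0.15, -0.56 to 0.02 and -0.72 to 0.0030.

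Klf13, a factor of T and B cells that in mice affects thymus and spleen size, rose without OBF-1 by 2 of its 3 probe sets. For 1432543_a_at the intensity was 1372 and 1252 in double mutants, 859 and 800.3 in Aiolos mutants, 1104 and 1316 in OBF-1 mutants and 942 and 954 in wild type. The 4 arrays without OBF-1 lay above the 4 with it. The log2 change was 0.47 in the double mutant against wild type (standard error 0.11, adjusted p = 0.017 from limma) and 0.66 against the Aiolos mutant (standard error 0.11, adjusted p = 0.0046). The first was lost without wild type array 1 (adjusted p = 0.0936), wild type array 2 (0.0845) or double-mutant array 1 (0.128), the second without Aiolos array 2 (0.0591). The average OBF-1 effect of 0.50 (standard error 0.075, adjusted p = 0.0016) passed with each array left out in turn, and it too was measured between modules.

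For the Klf13 probe set 1436316_at the intensity was 1764 and 1798 in double mutants, 1502 and 1542 in Aiolos mutants, 1612 and 1647 in OBF-1 mutants and 1316 and 1333 in wild type. The 4 genotypes did not overlap, with the double mutant highest and wild type lowest. The double mutant was higher than wild type by a log2 change of 0.43 (standard error 0.086, adjusted p = 0.0092 by limma), which was lost without wild type array 1 (adjusted p = 0.0590) or wild type array 2 (0.0513). The average OBF-1 effect of 0.26 (adjusted p = 0.028) did not pass in any of the 8 fits that left out 1 array (adjusted p 0.0584 to 0.0959). In the OBF-1 mutant against wild type the log2 changes of 0.35 (1432543_a_at, adjusted p = 0.15) and 0.30 (1436316_at, adjusted p = 0.12) did not pass. The third Klf13 probe set (1456030_at) lay between 39.8 and 49.3 and passed in no comparison. The granulocyte and monocyte markers were also higher without OBF-1, 4 of 11 by the average OBF-1 effect, against 2.72% of all probe sets (median log2 0.24, against -0.0012 over all probe sets), and their part in the Klf13 result was not tested.

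**Figure D3:**
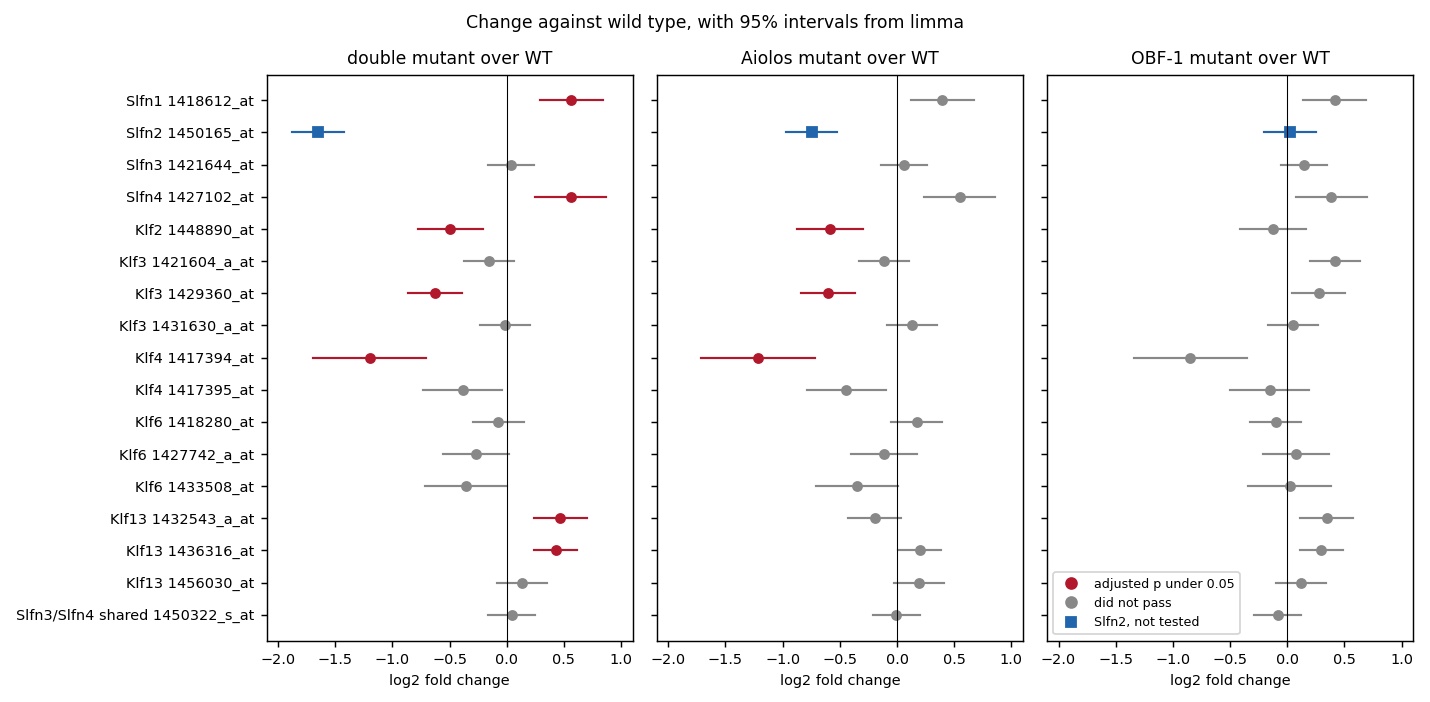
Log2 fold change of each probe set (rows) in the double mutant, the Aiolos mutant and the OBF-1 mutant over wild type, with 95% intervals from limma; red points passed an adjusted p of 0.05, grey did not, and blue squares are Slfn2, which was not tested. Slfn2 lies at -1.65, -0.75 and 0.02, and Klf4 1417394_at at -1.20, -1.22 and -0.85.

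Counted over the 16 probe sets other than Slfn2, 7 passed in the double mutant against wild type, 4 of them higher (Slfn1, Slfn4 and 2 of Klf13) and 3 lower (Klf2, Klf3 and Klf4). Of all probe sets 8.57% passed in that comparison, 4.29% higher and 4.28% lower. The Aiolos mutant had 3 of 16, all lower (Klf2, Klf3 and Klf4), against 1.84% of all probe sets, of which 1.01% lower. The OBF-1 mutant had 0 of 16 by limma, against 2.09%, while 7 of the 16 had an unadjusted p under 0.05. The median log2 change of the 16 was -0.05 in the double mutant, -0.06 in the Aiolos mutant and 0.10 in the OBF-1 mutant, against 0.01, 0.03 and 0.02 over all probe sets. These 3 comparisons share the same wild type arrays. Without moderation of the variances 1 of the 7 passed in the double mutant (Klf13 1436316_at, adjusted p = 0.018) and 0 of the 3 in the Aiolos mutant (7 of 16 with moderation had an unadjusted p from limma under 0.05).

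Between the double mutant and the single mutants fewer members passed. Against the Aiolos mutant 1 of 16 was higher (Klf13), where 2.95% of all probe sets passed and 1.75% were higher, and against the OBF-1 mutant 2 of 16 were lower (both Klf3), where 2.63% passed and 1.03% were lower. No member other than Slfn2 departed from additivity by limma (0 of 16, 2 at an unadjusted p under 0.05), and 0.186% of all probe sets did. Over all 17 probe sets, here with the chosen Slfn2 included, the average Aiolos effect passed for 5, all lower (Slfn2, Klf2, 2 of Klf3 and Klf4). Of all probe sets 6.17% passed by it (3.27% lower). The average OBF-1 effect passed for 3, Slfn2 lower and 2 of Klf13 higher, against 5.02% (2.72% higher, 2.29% lower). Because Slfn2 was chosen on these arrays, its place in both counts is not a result about the members. Without moderation Slfn2 (adjusted p = 0.046) was the one of the 5 that passed, and Klf13 1436316_at (0.027) the one of the 3.

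**Figure D4:**
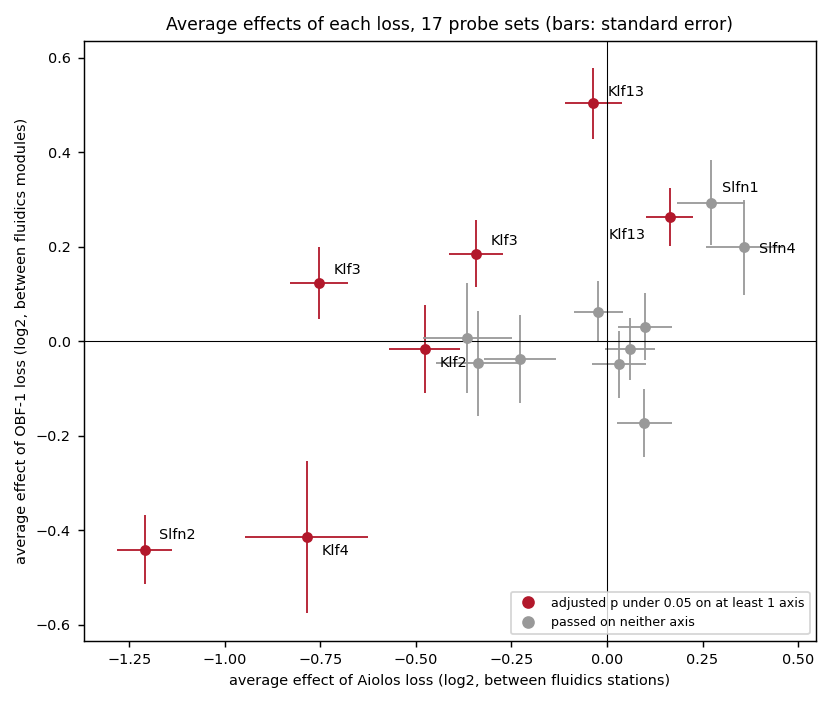
Average log2 effect of Aiolos loss (x axis, between fluidics stations) against that of OBF-1 loss (y axis, between fluidics modules) for the 17 probe sets, with standard errors as bars; red points passed on at least 1 axis. Slfn2 (-1.21 and -0.44) and Klf4 1417394_at (-0.79 and -0.41) lie low on both axes, but this Klf4 probe set did not pass on the y axis (adjusted p = 0.21 from limma). The other Klf4 probe set, 1417395_at, lies at -0.34 and -0.05 and passed on neither axis. On the x axis 2 of the 3 Klf3 points lie left (-0.75 and -0.34, the third at 0.03). On the y axis 2 of the 3 Klf13 points lie high (0.50 and 0.26, the third at 0.03).

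Other regulators tied to rest and division were set beside the members, in lists chosen with results of these arrays known. Without moderation of the variances none of the calls named for Slfn8 or for these lists passed. The adjusted p from limma then ran from 0.05002 (Il7r, double mutant against wild type), just over the threshold, to 0.334. Of 16 quiescence-associated regulators, 2 passed in the double mutant, where 8.57% of all probe sets did, the pocket protein gene Rbl2 higher (log2 change 0.54, adjusted p = 0.030 from limma) and Tsc22d3, the glucocorticoid-induced leucine zipper gene, lower (-0.67, adjusted p = 0.043). Rbl2 was lost without wild type array 1 (adjusted p = 0.0907), wild type array 2 (0.167) or double-mutant array 2 (0.175), and Tsc22d3 passed in 3 of 8 fits that left out 1 array (adjusted p 0.0076 to 0.315). By the average Aiolos effect 2 of the 16 were lower (against 3.27% of all probe sets), Ets1, a factor of resting lymphocytes (-0.38, adjusted p = 0.0071), which passed with each array left out, and Tsc22d3 (-0.53, adjusted p = 0.036), which passed in 2 of 8 such fits. The median of the list was -0.04 in the double mutant, against 0.01 over all probe sets.

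Of 9 other Kruppel-like factors 2 passed in the double mutant (against 8.57% of all probe sets) and 1 in the OBF-1 mutant (against 2.09%). Klf1, the erythroid factor, rose in the double mutant (log2 change 0.69, adjusted p = 0.013 from limma) and in the OBF-1 mutant (0.89, adjusted p = 0.0078), and Klf10 fell in the double mutant (-0.65, adjusted p = 0.017). Klf1 had an intensity of 179 and 159 in double mutants, 125 and 148 in Aiolos mutants, 165 and 231 in OBF-1 mutants and 105 and 105 in wild type. The erythroid marker Car1 rose as well, with log2 changes of 1.34 (double mutant, adjusted p = 0.00063) and 1.46 (OBF-1 mutant, adjusted p = 0.00099), and its part in the Klf1 result was not tested. Klf1 did not pass in the double mutant without wild type array 1 (adjusted p = 0.0750), wild type array 2 (0.0752) or double-mutant array 1 (0.109), nor in the OBF-1 mutant without wild type array 1 (0.0732), wild type array 2 (0.0635) or OBF-1 array 2 (0.0623). Klf10 was lost without wild type array 1 (0.106), wild type array 2 (0.0749) or double-mutant array 1 (0.131).

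Klf2 is known to drive trafficking genes in lymphocytes, and of 6 such genes measured 2 passed in the double mutant against wild type (8.57% of all probe sets). Il7r, the interleukin 7 receptor chain on which pre-B cell growth depends, rose to an intensity of 3071 and 3542 in the double mutant, against 1773 and 1824 in wild type (log2 change 0.88, adjusted p = 0.00021 from limma). It was 2287 and 2031 in the Aiolos mutant and 2679 and 2704 in the OBF-1 mutant. Cxcr5, a homing receptor of mature B cells, fell (-0.88, adjusted p = 0.0048), at a dim 32.6 and 41.9 in the double mutant, against 62.9 and 73.1 in wild type, and was lost without wild type array 2 (0.0593) or double-mutant array 1 (0.0617). S1pr1, the receptor for exit from tissues and a target of Klf2 in mouse T cells, had 208 and 229 in double mutants, 252 and 205 in Aiolos mutants, 264 and 203 in OBF-1 mutants and 231 and 218 in wild type. All 4 genotypes overlapped for S1pr1. Against the Aiolos mutant 4 of the 6 passed in the double mutant (2.95% of all probe sets), with Il7r, Ccr7 and S1pr4 higher and Cxcr5 lower, and the same genes passed in the same directions by the average OBF-1 effect (5.02%). Leaving out 1 array gave 0 to 3 calls against the Aiolos mutant, with 0 without Aiolos array 2, 1 without either double-mutant array and 2 without Aiolos array 1, and 3 or 4 by the average OBF-1 effect, where Ccr7 was lost in 6 of 8 fits.

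Of 11 proliferation genes measured, 8 were lower by the average Aiolos effect, against 3.27% of all probe sets, with a list median of -0.44 against 0.01. Leaving out 1 array gave 2 to 8, with 2 without OBF-1 array 2, 3 without wild type array 1, wild type array 2 or double-mutant array 1, 4 without Aiolos array 1 and 5 without Aiolos array 2. In the double mutant against wild type 0 passed (2 at an unadjusted p from limma under 0.05). By the average Aiolos effect Aurkb, a mitotic kinase (-0.45, adjusted p = 0.0035), and Ccna2, cyclin A2 (-0.44, adjusted p = 0.0039), passed with each array left out in turn. Aurkb had an intensity of 92.5 and 109 in double mutants, 89.0 and 88.4 in Aiolos mutants, 141 and 132 in OBF-1 mutants and 118 and 124 in wild type. Both groups without Aiolos lay below both groups with it, on the other station, as for Slfn2, Slfn8, Klf2 and Klf3 1429360_at. How many of all probe sets separated in this way was not counted, so the separation is not shown to be particular to these genes. By the average Aiolos effect 2 of 9 interferon-induced genes were higher, Oasl2 (0.45, adjusted p = 0.039 from limma) and Ifih1 (0.32, adjusted p = 0.024). Of all probe sets 6.17% passed by this effect in either direction, and 3.27% were lower. Oasl2 and Ifih1 were each lost in most of the 8 fits that left out 1 array. Usp18 was lower in the double mutant against the Aiolos mutant (-0.45, adjusted p = 0.042) and passed in 0 of those 8 fits (adjusted p 0.0509 to 0.283). Of the 9, 0 passed in any of the 3 genotypes against wild type by limma (1 in the double mutant, 2 in the Aiolos mutant and 0 in the OBF-1 mutant at an unadjusted p under 0.05).

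**Figure D5:**
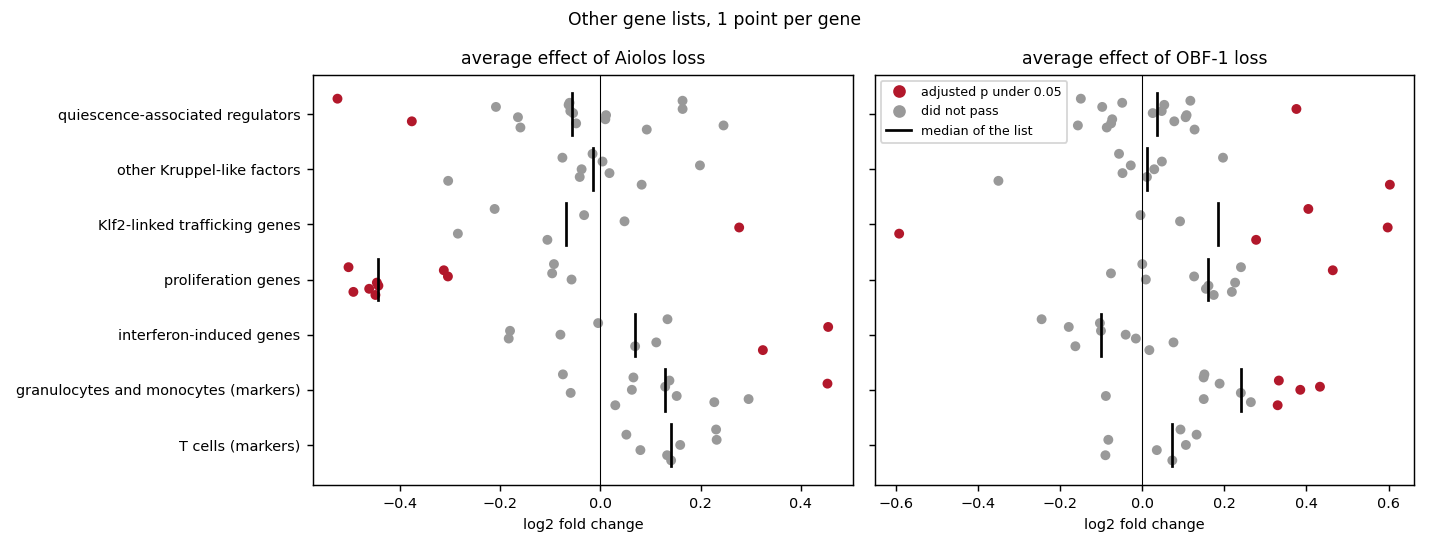
Average log2 effect of Aiolos loss (left) and of OBF-1 loss (right) for the genes of 7 lists, 1 point per gene; red points passed an adjusted p of 0.05 and the black bar is the median of the list. Proliferation genes have 8 of 11 points in red on the left (2 to 8 with 1 array left out) and a median of -0.44, and granulocyte and monocyte markers have a median of 0.24 on the right.

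Over the 8 arrays, the genes whose log2 values followed Slfn2 most closely, among probe sets of 1 gene with a mean of at least 100 intensity units, were Cd2 (Pearson r = 0.986), Dtx1 (0.979), Taf10 (0.974), Coro1a (0.973) and Orc6 (0.970). Cd2 encodes an adhesion protein of the lymphocyte surface and Dtx1 a regulator of Notch signalling, and Coro1a an actin-binding protein. The mean intensity of Cd2 was 193 in the double mutant, 319 in the Aiolos mutant, 594 in the OBF-1 mutant and 637 in wild type, the same order as for Slfn2 except that Slfn2 did not separate the last pair. Of the members with a probe set of at least that mean, and by the probe set of each gene with the highest r, Klf3 1429360_at had an r of 0.856 with Slfn2, Klf6 0.769, Klf2 0.719, Klf4 0.643, Klf13 -0.328 and Slfn4 -0.568, and Slfn8 had 0.819. The points are 4 genotypes with 2 arrays each, washed on 2 stations, so these values mainly describe genotype means. For Cd2, Dtx1, Taf10, Coro1a and Orc6, as for Slfn2, the mean was lowest in the double mutant and next lowest in the Aiolos mutant. The OBF-1 mutant and wild type did not stand in 1 order over these genes.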

How the data were processed

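Total RNA from 8 mouse samples was hybridized to MOE430A GeneChips, 2 arrays for each of 4 genotypes. Intensities were deposited in linear units after RMA by the authors, per the labels, which give no version. The study's methods name other software (Microarray suite, GeneSpring). Per the file headers of the other deposited instrument files, which hold settings and no expression values, the fluidics station, the module and the chip type were read. Of 22690 probe sets 64 controls were left out. RMA quantile normalization makes arrays alike in distribution, so a shift of all genes would not be seen, and it compresses changes of dim probe sets.

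The log2 of each intensity was fitted with limma 3.58.1 in R 4.3.3, with 1 mean per genotype over all 8 arrays (4 residual and 7.69 prior degrees of freedom). P-values were adjusted by Benjamini-Hochberg over all 22626 probe sets, and a change counted at an adjusted p under 0.05. Adjusted p-values in the text come from this fit unless another setting is named. The procedure was tested on simulated data. Gene symbols came from GEO's platform annotation (20380 probe sets with 1 symbol, 691 with several, 1555 with none). The number of arrays limits the precision.

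All probe sets of the 9 members were named. For other lists the probe set with the highest mean was used for each gene, at most 4 genes passing per list and comparison were named, and 5 genes were named for likeness to Slfn2. The members and lists were chosen with earlier results of these data known. Promoters came from RefSeq (GRCm38.p6). The alternatives were quantile normalization, centring on array medians, unmoderated variances, a minimum mean of 100, eBayes with trend and robust, a replicate block, only the compared genotypes, linear values for the departure from additivity, and leaving out each array in turn.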

Additional observations from a re-analysis of the deposited data

Results flagged for a closer look

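The change of Slfn2 on loss of 1 factor differed with the presence of the other, by a log2 departure from additivity of -0.93 (1450165_at). This is the value by which the gene was chosen, so it carries no test here. Without OBF-1 in cells lacking Aiolos the log2 difference was -0.90, and without OBF-1 in cells with Aiolos it was 0.02. No other member and no gene of the other lists had a departure from additivity that passed an adjusted p of 0.05 in limma, and 2 of the other 16 member probe sets had an unadjusted p under 0.05, Klf3 1421604_a_at (-0.46) and Klf4 1417394_at (0.86).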

How the results depend on the processing

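The count of probe sets that passed, out of 16 without Slfn2 or 17 with it for the averages, depended most on the moderation of variances. Without it 1 passed for the double mutant against wild type, 0 for the Aiolos mutant against wild type, 0 for the double mutant against the Aiolos mutant, 0 against the OBF-1 mutant, 1 for the average Aiolos effect and 1 for the average OBF-1 effect, and the average OBF-1 effect on Slfn2 of -0.44 did not pass (adjusted p = 0.118 from limma). With only the compared genotypes 1 passed for the Aiolos mutant, with the trend and robust fit 1 passed for the OBF-1 mutant, and with a minimum mean of 100 there was 1 for the double mutant against the OBF-1 mutant. Leaving out 1 array at a time gave 1 to 7 for the double mutant, 0 to 3 for the Aiolos mutant and 0 to 1 for the OBF-1 mutant, each against wild type, 0 to 1 and 1 to 2 for the double mutant against the Aiolos and the OBF-1 mutant, 3 to 6 and 2 to 3 for the average Aiolos and OBF-1 effects, and 0 throughout for the departure from additivity. The departure of Slfn2 ranged from -1.03 to -0.82 in these fits. Its near-zero difference between OBF-1 mutant and wild type ranged from -0.060 to 0.105 and changed sign without wild type array 2 (-0.0085) or OBF-1 array 2 (-0.060). The cause of these changes was not tested.

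The replicate numbers did not pair the arrays, since the differences between replicates of different genotypes correlated at -0.0875 to 0.103. With a replicate block Klf2 in the Aiolos mutant no longer passed (adjusted p = 0.0529, log2 change -0.58) and Slfn4 passed by the average Aiolos effect (adjusted p = 0.0459, log2 change 0.36), and no other call on a member changed. Over all probe sets the double mutant against wild type had 1938 calls, 2027 with the block and 359 without moderation. Without moderation the other comparisons had 6 in place of 417 (Aiolos mutant against wild type), 9 in place of 472 (OBF-1 mutant), 22 in place of 667 and 26 in place of 596 (double mutant against the Aiolos and the OBF-1 mutant), 37 in place of 1396 and 137 in place of 1135 (average Aiolos and OBF-1 effects), and 0 in place of 42 departures from additivity, which were 23 with the minimum mean. Only the compared genotypes gave 251 in place of 417. The member values that passed in the main fit or in some alternative were followed over the alternatives. Of these pairs of value and alternative, 359 kept their side of the threshold, 71 lost it, 15 gained it and 0 changed direction. Member values that passed in no fit were not counted.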
